A study of Brassica napus with 22 samples.

Results

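The chalazal proliferating tissue of the young rapeseed seed was compared with the 6 other dissected seed compartments, gene by gene. It is represented by 3 of the 22 libraries of the series, which the authors combined into 1 column of FPKM, the number of fragments scaled to transcript length and to sequencing depth. Of the 101040 genes in the deposited table, 54278 could be compared. All samples were seeds of Brassica napus cultivar Topas at the globular stage, from plants grown in long days. The maternal compartments, besides the chalazal proliferating tissue, were the inner seed coat with 3 libraries and the outer seed coat with 2. The filial compartments were the embryo proper with 2 libraries, the micropylar endosperm with 4, the chalazal endosperm with 3 and, with 2, the peripheral endosperm. Whole seeds, with 3 libraries, were left out of the contrast, and their values are given for some genes. No library was treated or mutated. The name of the table abbreviates laser microdissection, and no other source used here describes how compartments were cut out. Only 1 value per compartment was deposited, so no spread between libraries, no error and no p-value could be given for anything that follows.

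The chalaza is the end of the seed where the vascular strand of the mother plant stops. Between this strand and the chalazal endosperm lies the chalazal proliferating tissue, a maternal tissue derived from the nucellus, the tissue that surrounds the embryo sac in the ovule. Sugars, amino acids, water and minerals must leave maternal cells here before the endosperm and embryo can take them up, and in Arabidopsis much of the nucellus is removed by programmed cell death while the endosperm expands. Roles given below are those of the Arabidopsis gene that the authors' best protein match links to each rapeseed gene. Rapeseed carries an A and a C subgenome, so that several copies share an Arabidopsis name. Reads of near-identical copies may be split uncertainly between them, and whether strand was used in counting is not given in the sources used here. Positions are those of the deposited table, whose genome build is not given either.

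A gene is called higher or lower in chalazal proliferating tissue where its log2(FPKM + 1) differed from the mean of the 6 others by at least 1, with a mean of at least 5 FPKM on the higher side. This rule of size involves no test. By it, 8930 genes (16.5%) were higher and 6100 (11.2%) lower, together 27.7%. A stricter pattern, at least 5 FPKM and at least 2-fold above every other compartment on the FPKM + 1 scale, is called peaking here and held for 2238 genes (4.12%). The A20/AN1 zinc finger gene BnaC09g23530D lay just outside, at 148 FPKM against 74 in the next compartment and a ratio of 1.99. Just inside lay BnaA01g32090D, an undescribed gene at 337 FPKM against 168. The share of higher genes among those counted, 59.4%, became 73.2% when columns were scaled to a common median and 50.9% when they were rescaled to a common sum. These scalings moved the median of all genes by 0.33 and -0.12 log2 units, so the balance of higher to lower genes depends on the scaling.

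The column of the chalazal proliferating tissue sums to 1229526 FPKM, within the range of 760254 to 2283005 of the 7 compartments. It lists 42514 genes at 1 FPKM or more and 20915 at 5 or more. Genes of ribosomal RNA and the organelles took 4.86% of its sum, against 4.16% to 36.9% elsewhere. The number of reads behind a value is not given, and in bulk tissue fewer cells of a type cannot be told apart from less RNA per cell.

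Most markers named here for the neighbouring tissues were at or near 0 in the column, with those of the inner seed coat as the exception. Of 32 copies of the endosperm regulators AGL62, AGL35, PHE1, PHE2 and MINI3, 28 were lower and 29 listed at 0. Their levels sum to 3 FPKM here, against 3891 in the chalazal endosperm, 2530 in the peripheral endosperm, 771 in the micropylar endosperm and 2 to 37 in the others. All 7 copies of the embryo regulators LEC1, LEC2, FUS3 and ABI3 were at 0, where the embryo proper has a sum of 449, and without the embryo column 1 of them stayed lower by the rule. The outer seed coat had 154 FPKM of the outer integument gene INO and 47 of GL2, a gene of its epidermis, against 1 and 0 here. The whole mucilage and seed coat epidermis list, which holds GL2, was not low here. Of its 72 copies 10 were higher and 6 lower, and they sum to 890 FPKM here against 739 in the outer seed coat. In the ovule and integument patterning list 5 of 51 copies were higher and 3 lower. The phloem lectin PP2-A1 was at 0 in every copy, and the 27 copies of the phloem and xylem list sum to 7 FPKM, against 8 to 319 elsewhere. TT16, a MADS-box gene needed for nucellus breakdown and for the inner seed coat in Arabidopsis, summed to 1768 FPKM here, 1112 in the inner seed coat and 0 to 16 in the other 5 compartments. Since TT16 is shared with the inner seed coat, these markers do not tell the chalazal proliferating tissue apart from it. The endosperm and embryo regulators named above were picked from their lists after the values were seen. A share of inner seed coat RNA in the column was not tested.

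Genes that peaked held 42.0% of all FPKM in the chalazal proliferating tissue. The same genes held 1.80% to 6.35% of the sum in the 6 other columns and 8.88% in the whole seed. Low shares in the 6 others follow from how these genes were picked. Their median level was 44 FPKM, from 5 to 21753, and their median ratio to the next compartment was 3, with 786 genes at 4-fold or more, 291 at 10-fold and 45 at 100-fold. The embryo proper had more peaking genes, 3933, but these held 16.1% of its sum. The micropylar endosperm had 3728, which held 44.5%, and the chalazal endosperm had 2064, which held 62.4%. Genes at 100-fold or above numbered 45 here, 80 in the chalazal endosperm and 1 to 10 in each of the other 5.

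The compartment with the next highest level differed between moderate and extreme genes. For the 2238 peaking genes it was most often the inner seed coat, with 827 genes (37.0%), whereas the inner seed coat came next for 21.2% of all 20713 compared genes at 5 FPKM or more. For the 45 genes at 100-fold or above it was the chalazal endosperm in 26 (57.8%), where their median was 0.348% of the level in the chalazal proliferating tissue. In the embryo proper all 45 were listed at 0, as were 36 in the outer seed coat and 33 in micropylar endosperm. Carry-over of RNA between the adjoining chalazal compartments was not tested. Of the 6692 genes that were higher without peaking, 848 (12.7%) came within 2-fold, or above, in the inner seed coat alone. The micropylar endosperm alone accounted for 325, the chalazal endosperm alone for 311 and each of the others alone for 175 to 246. The remaining 4541 (67.9%) did so in 2 or more compartments.

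**Figure D1:**
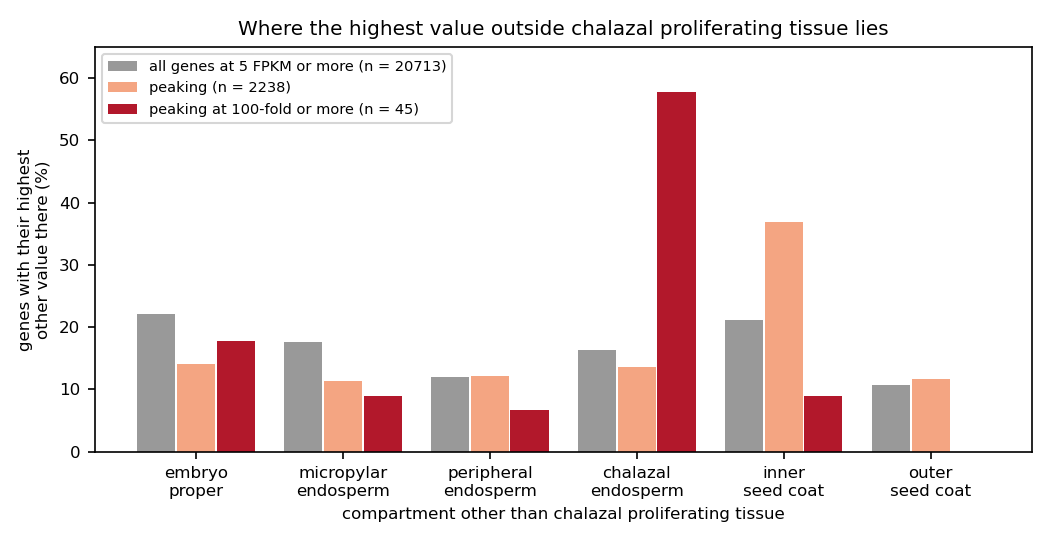
Share of genes (%, vertical axis) whose highest value outside the chalazal proliferating tissue lies in each of the 6 other compartments, for all compared genes at 5 FPKM or more there (grey, n = 20713), peaking genes (orange, n = 2238) and peaking genes at 100-fold or more (dark red, n = 45). The inner seed coat leads for peaking genes with 37.0% and the chalazal endosperm for those at 100-fold or more with 57.8%; genes at 0 in all 6 are counted to the embryo proper.

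The largest differences belong to genes that carry no description: all of the first 4 by difference and 6 of the first 10. BnaC03g32760D (C03, 20076504 to 20076791) is a gene of 288 bases listed at 20457 FPKM, where the chalazal endosperm had 150, the inner seed coat 11, the peripheral endosperm 2 and the embryo proper, micropylar endosperm and outer seed coat 0. Its difference of 12.25 was the highest of all, and the whole seed had 105. BnaA09g33020D (A09, 24406103 to 24406902) was the most abundant peaking gene, at 21753 FPKM. The chalazal endosperm had 95, the inner seed coat 41, the peripheral endosperm 16, the micropylar endosperm 3 and the other two 0. The widest ratio to the next compartment, 821, was that of BnaC08g08490D at 7384 FPKM against 8 in the chalazal endosperm. Neither the descriptions nor the protein match give these genes a role. The 5 most abundant genes of the column also included an ARR22 copy, described later, and an rRNA gene, BnaAnng22160D. It was at 34776 FPKM here and 12537 to 44698 in the other 6 compartments. The rRNA gene and the undescribed BnaC02g36110D, at 21751 FPKM and 21065 to 123547 elsewhere, did not pass the rule of size.

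Among described genes, kelch-repeat proteins of a single Arabidopsis locus, AT4G38940, stood out by level. Kelch repeats are protein-binding folds, found in F-box proteins that pick targets for ubiquitination. Of 36 compared copies of this locus 11 peaked and 1 was lower, and their levels sum to 32243 FPKM here against 36 to 309 in the other compartments. BnaA05g32110D (A05, 22054509 to 22056419) stood at 13251 FPKM, where the chalazal endosperm had 62, the peripheral endosperm 16, the inner seed coat 14, the micropylar endosperm 12, the outer seed coat 1 and the embryo proper 0. Next came BnaC05g46760D at 7841 FPKM, and BnaC05g46770D, BnaA03g23890D and BnaC03g28370D at 2880, 2586 and 2323. The whole description class of galactose oxidase/kelch proteins, with 234 compared genes, had 50 higher, 14 lower and 23 peaking, with a median difference of 0.33 against -0.07 for all genes. The classes and loci grouped from descriptions in this and the following paragraphs, other than the 22 gene lists, were chosen after their values were seen. Smaller sets split from those lists, such as ATG8 or the replication genes, were chosen in the same way.

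Small heat shock proteins, which hold unfolding proteins in solution, gave a second set. The HSP20-like gene BnaA03g42680D (A03, 21403472 to 21405133) was at 8696 FPKM against 45 in the chalazal endosperm, 8 in each of the peripheral endosperm and inner seed coat, 4 in the micropylar endosperm and 0 in the embryo proper and outer seed coat, a difference of 10.72. BnaC07g33780D, also HSP20-like, was at 6237 against at most 50. BnaC07g33580D, of the HSP20/alpha crystallin family, was at 2414 against at most 14. Of 65 compared genes described as HSP20-like chaperones, 30 were higher, 0 lower and 11 peaked.

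Several enzymes and binding proteins had ratios of the same order. The cytidine deaminase gene BnaA03g49600D, of an enzyme family that recycles pyrimidines, was at 6844 FPKM against 43 in the chalazal endosperm and at most 10 in the other 5. Of 25 compared cytidine deaminase genes, 8 were higher, 1 lower and 5 peaked, among them BnaC07g50770D at 779 and BnaC07g50710D at 763 FPKM. The mannose-binding lectin gene BnaCnng52420D was at 5424 FPKM against at most 19, and BnaA01g12420D at 880 against at most 2. Among 22 lectin genes of this kind, 8 were higher, 2 lower and 6 peaked. The carboxylesterase gene BnaA02g33300D, at 1149 FPKM, and the aspartyl protease genes BnaA03g58620D, at 2964, and BnaC08g45850D, at 2580, were at no more than 68 FPKM in any other compartment. Over all 136 compared aspartyl proteases, 24 were higher and 25 lower, with a median of -0.33. Of them 7 peaked (5.15%, against 4.12% of all genes).

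ARR22 encodes a response regulator of the cytokinin pathway, which in Arabidopsis is expressed at the junction of chalaza and funiculus. Its copy BnaC03g33640D (C03, 20481987 to 20483008) was at 16964 FPKM, where the micropylar endosperm had 162, the inner seed coat 157, the chalazal endosperm 70, the peripheral endosperm 40 and the embryo proper and outer seed coat 0. The difference was 9.69, and the whole seed had 144 FPKM. The list of cytokinin metabolism and perception, which does not hold ARR22, did not share this pattern. In it 1 copy was higher, 6 were lower and 26 neither, with a median of -0.55. The one higher copy, of the receptor AHK3 (BnaC07g11340D), had 6 FPKM. The synthesis gene IPT8 (BnaC01g33530D) was at 0 here and at 273 in the chalazal endosperm, and CKX2 (BnaA09g52930D), which degrades cytokinin, was at 0 here and at 104 in the peripheral endosperm.

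**Figure D2:**
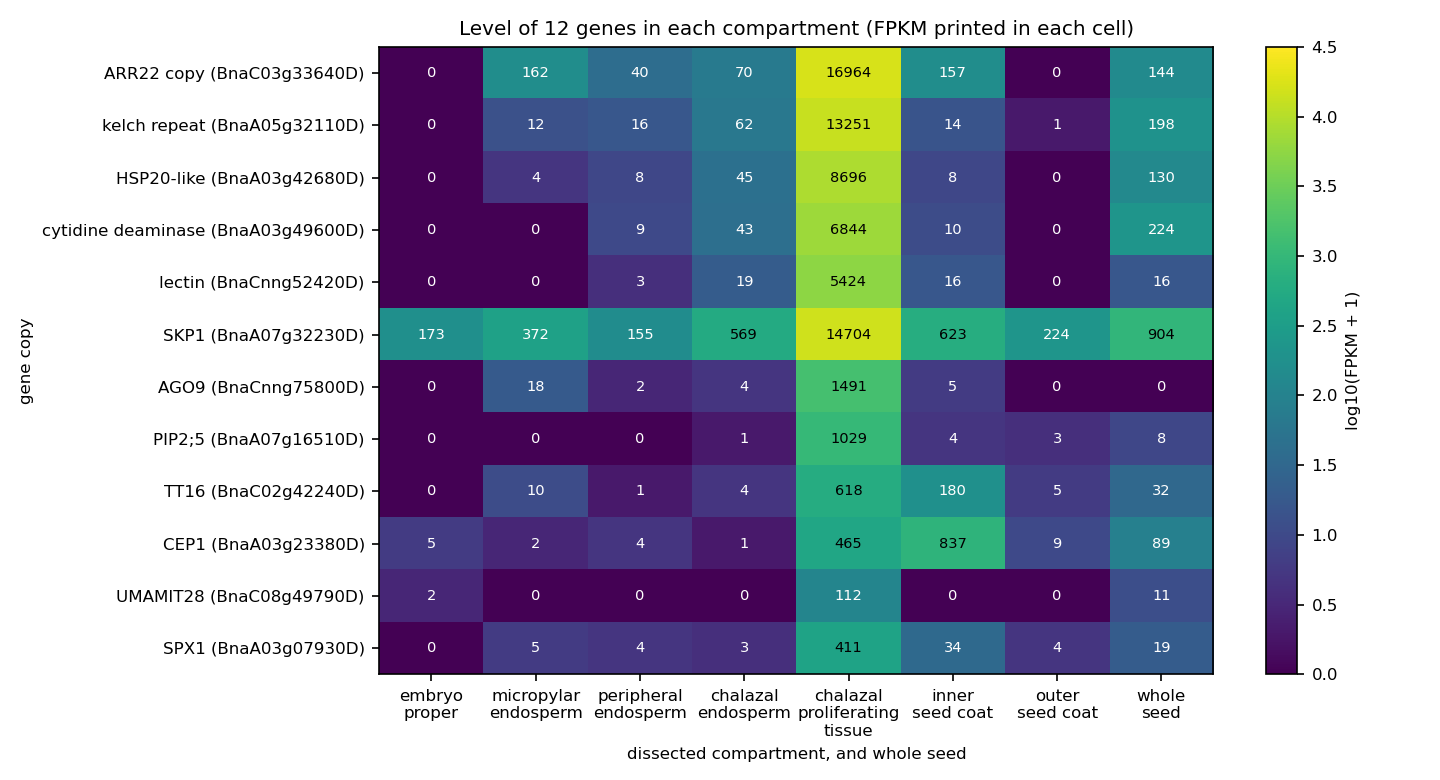
Levels of 12 gene copies (rows) in the 7 dissected compartments and the whole seed (columns), with the FPKM value printed in each cell and colour on a log10(FPKM + 1) scale; each cell is 1 deposited value. ARR22 at 16964, SKP1 at 14704 and the kelch-repeat gene at 13251 FPKM are the most abundant, TT16 and CEP1 are shared with the inner seed coat, and SKP1 is the one gene with more than 100 FPKM in every compartment.

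Genes of protein tagging were prominent. SKP1 links F-box proteins to the ubiquitin ligase complex. Its copy BnaA07g32230D was at 14704 FPKM, against 623 in the inner seed coat, 569 in the chalazal endosperm, 372 in the micropylar endosperm, 224 in the outer seed coat, 155 in the peripheral endosperm and 173 in the embryo proper. A second copy, BnaC06g36600D, was at 7020 against 333 in the chalazal endosperm, and BnaC06g22030D at 1685 against 600 in the inner seed coat. Thus 6 of 11 copies of SKP1 peaked while 3 were lower. Over all 32 SKP1-like genes 9 were higher and 10 lower, with a median of -0.12 that turned to 0.10 when columns were scaled to a common median.

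SUMO is a small protein attached to others much as ubiquitin is. The SUMO5 copy BnaC03g18110D was at 3319 FPKM against 75 in the inner seed coat and at most 7 in the other 5, and BnaA03g15090D at 508 against 24. Near each on its chromosome lies a copy of the ubiquitin-conjugating enzyme locus AT2G32790, BnaC03g18130D at 290 FPKM and BnaA03g15110D at 123, with at most 20 elsewhere. Among 242 genes for ubiquitin, SUMO, the related modifier RUB and their conjugating enzymes, 102 were higher, 12 lower and 43 peaked, with a median of 0.82. UBC11, a conjugating enzyme, had 5 of 6 copies peaking, led in level by BnaA01g32320D at 1038 FPKM against 193 in the inner seed coat. RUB1 had 5 of 7 copies peaking, with BnaC04g09440D at 667 FPKM. Proteasome subunits differed less, with 37 of 140 higher, 6 lower and a median of 0.49.

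The list of nucellus and cell death genes had 35 of 74 compared copies higher, 6 lower and 33 neither, with 12 peaking and a median difference of 1.20. Without the inner seed coat column 27 peaked. TT16 was higher in all 6 copies. BnaA03g39500D (A03, 19707065 to 19709464) had 579 FPKM against 322 in the inner seed coat, 5 in the chalazal endosperm, 3 in each of the peripheral endosperm and outer seed coat and 0 in the other two. BnaC02g42240D had 618 against 180 in the inner seed coat and at most 10 in the other 5. NAC087, a factor that promotes developmental cell death in the root cap of Arabidopsis, peaked in all 3 compared copies. They had 96 FPKM (BnaC03g08880D), 43 (BnaA03g07000D) and 34 (BnaC02g07990D), with at most 5 in any other compartment. The nuclease gene BFN1 (BnaCnng63000D) had 24 FPKM against at most 1.

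Proteases of cell death were divided between the chalazal proliferating tissue and the inner seed coat. CEP1, a papain-like protease of dying cells, peaked here in BnaC03g27700D, with 237 FPKM against 69 in the inner seed coat, but BnaA03g23380D had 465 against 837. Both had at most 9 FPKM in the other 5 compartments. The aspartic protease PASPA1 peaked in BnaC08g15160D with 799 FPKM against 100 in the inner seed coat, while BnaA09g47450D had 640 against 802. The 4 compared copies of delta-VPE, a seed coat protease with caspase-like activity, were all higher than the mean of the others, yet they sum to 2485 FPKM here and to 37280 in the inner seed coat. SAG12, a senescence protease, was near 0 here and at 1116 FPKM in the inner seed coat in BnaA06g40240D. RNS1, a ribonuclease, was lower in BnaA06g33900D, with 6 FPKM against 1469 in the chalazal and 956 in the peripheral endosperm. The caspase-like protease MC4 was higher in both copies, with a sum of 200 FPKM against 91 in the inner seed coat.

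**Figure D3:**
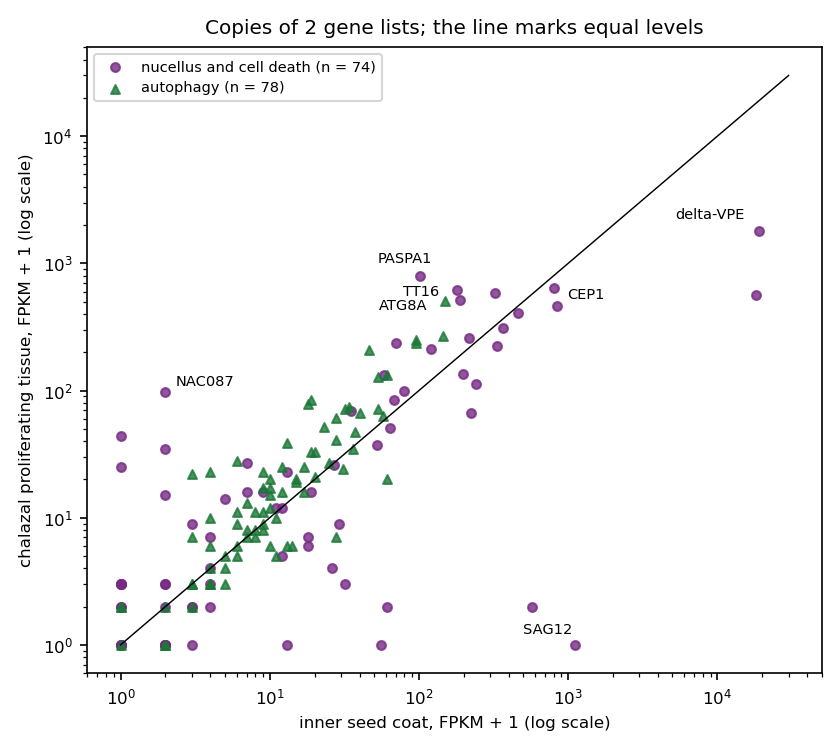
Level in the inner seed coat (horizontal) against the chalazal proliferating tissue (vertical), both as FPKM + 1 on log scales, for the 74 compared copies of nucellus and cell death genes (circles) and the 78 of autophagy genes (triangles); each point is 1 gene copy and the line marks equal levels. NAC087, PASPA1 and ATG8A copies lie above the line, and delta-VPE, CEP1 (BnaA03g23380D) and SAG12 copies below it.

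Autophagy delivers cell contents to the vacuole for breakdown. Of 78 compared copies in the autophagy list, 42 were higher and 1 was lower, which leaves 35, and the median was 1.14. ATG8, the ubiquitin-like protein that coats the forming vesicle, accounts for the larger part. Of its 25 compared copies 23 were higher, 0 lower and 8 peaked, with a median of 2.52. Peaking copies numbered 4 under the common sum and 14 without the inner seed coat column. Their sum was 2398 FPKM, against 1061 in the inner seed coat, 828 in the chalazal endosperm, 643 in the micropylar endosperm, 410 in the outer seed coat, 381 in the peripheral endosperm and 158 in the embryo proper. The ATG8A copy BnaC02g26080D had 503 FPKM against 149 in the inner seed coat, and the ATG8E copy BnaC03g25150D had 77 against 17. The remaining 53 copies gave 19 higher, 1 lower and a median of 0.81. NBR1, a receptor that brings ubiquitin-tagged cargo to ATG8, was higher in 5 of 6 copies, with 70 FPKM in BnaA01g14050D against 32 in the chalazal endosperm. The single lower copy was of ATG10 (BnaC04g24130D), with 6 FPKM against 57 in the micropylar endosperm.

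Genes that plants switch on when phosphate is short were a further group. Of 41 compared copies of 13 such loci, 21 were higher, 0 lower and 14 peaked, with a median of 1.48. Under the common sum and quantile normalisation 1 copy became lower. PECP1, a phosphatase that releases phosphate from phosphocholine and phosphoethanolamine, had 1228 FPKM in BnaA08g23000D (A08, 16529841 to 16531142), where the peripheral endosperm had 16, the chalazal endosperm 15, the inner seed coat 3 and the other 3 had 0. Its copy BnaC08g17490D had 278 against at most 13. SPX1 and SPX3 encode sensors that hold back the phosphate response. SPX1 peaked in all 3 compared copies, with 411 FPKM in BnaA03g07930D and 266 in BnaC03g10000D against 34 and 55 in the inner seed coat. The SPX3 copies BnaA04g26060D, at 27 FPKM, and BnaC04g50120D, at 23, were at 0 in every other compartment. GDPD2, which breaks down lipid head groups, peaked in 4 of 4 copies, up to 96 FPKM in BnaC04g33210D. Not all of the response was shared, since the lipid synthesis gene SQD2 was higher in 0 of 6 copies, MGD3 in 0 of 2 and the phosphate transporter PHT1;4 in 0 of 3.

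Argonautes load small RNAs and silence matching transcripts or loci. Among 29 compared copies 16 were higher, 2 lower and 8 peaked, with a median of 1.07. AGO9, which in the Arabidopsis ovule acts outside the germ line to limit the number of gamete precursors, peaked in 5 of 7 compared copies. BnaCnng75800D had 1491 FPKM where the micropylar endosperm had 18, the inner seed coat 5, the chalazal endosperm 4, the peripheral endosperm 2 and the other two 0, a difference of 8.75. It was listed at 0 in the whole seed. BnaA10g14560D had 270 FPKM against at most 1, and BnaC09g36860D had 52 with 0 in all 6 others. The AGO9 copy BnaA02g05290D went the other way, with 2 FPKM here. AGO2 was higher in all 4 copies, led by BnaA05g14760D at 241 FPKM against 31 in the inner seed coat. AGO1, the main carrier of microRNAs, was higher in all 4 copies, with 183 FPKM in BnaC08g46720D against 105 in the inner seed coat. The AGO5 copy BnaC04g16450D had 289 FPKM, and the outer seed coat came next with 83. AGO4, of RNA-directed DNA methylation, was higher in 2 of 4 copies but highest in the embryo proper, with 249 FPKM there and 74 here in BnaC04g38560D. AGO6 was higher in 0 of 4.

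Proanthocyanidins are the tannins that brown the seed coat. In the flavonoid and proanthocyanidin list 25 of 59 copies were higher, 2 lower and 11 peaked, with a median of 1.17. Under the common sum 6 peaked. The last 3 enzymes of the branch, DFR, LDOX and BAN, were higher in all 10 compared copies and peaked in 8, with a median of 2.85, although levels were low. Under the common sum 9 were higher and 5 peaked. They sum to 133 FPKM here, 25 in the micropylar endosperm, 18 in the inner seed coat and 0 to 12 in the other 4. The DFR copy BnaA09g15710D had 37 FPKM against 10 in the micropylar endosperm, and the BAN copy BnaA01g36200D had 24 against 2. In the whole seed the BAN copies sum to 172 FPKM, against 56 here and at most 14 in the other compartments. TT2, the MYB regulator of BAN, summed to 9 FPKM here and 153 in the inner seed coat. The transferase TT19 (BnaA10g17440D) was at 0 here and at 66 FPKM in the inner seed coat.

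Transporters of food for the filial tissues were represented by single copies and not by the lists as wholes. Sugar transport and cleavage gave 14 higher, 7 lower and 56 neither of 77 copies, with a median of -0.17. The exporter SWEET1 had 660 FPKM in BnaA06g15180D, with 963 in the inner seed coat and at most 20 in the other 5. Sucrose synthase SUS1 was higher in all 4 copies, led by BnaC09g37040D at 74 FPKM against 35 in the micropylar endosperm. Vacuolar invertase VI2 was lower in 3 of 4 copies and the sucrose carrier SUC1 in 3 of 6. SWEET10 (BnaA03g13530D) had 13 FPKM here, at most 1 in the other compartments and 134 in the whole seed.

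Amino acid, nitrate and phosphate transporters gave 7 higher (11.3%), 7 lower (11.3%) and 48 neither of 62, with a median of -0.33. The amino acid exporter UMAMIT28 had 112 FPKM in BnaC08g49790D, 2 in the embryo proper and 0 in the other 5. The exporter UMAMIT14 had 15 in BnaC04g05980D with 0 in all 6, but 39 in the whole seed. The importer AAP8 was divided between copies. BnaC05g07760D had 201 FPKM here against 78 in the inner seed coat, whereas BnaA06g38000D was at 0 here, with 61 FPKM in peripheral and 40 in chalazal endosperm. The cationic amino acid transporter CAT6 (BnaA03g01440D) had 55 FPKM against 15 in the inner seed coat.

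Aquaporins, which are water channels, and copper carriers included more extreme members. The aquaporin PIP2;5 peaked in 4 of 4 copies. BnaA07g16510D (A07, 13969366 to 13971846) had 1029 FPKM, where the inner seed coat had 4, the outer one 3, the chalazal endosperm 1 and the other 3 had 0. Its other copies had 180, 145 and 17 FPKM in BnaA09g34600D, BnaC06g15450D and BnaC08g25570D. Over all 36 plasma membrane aquaporins 15 were higher and 7 lower. Of 17 genes described as copper transport proteins, 11 were higher, 2 lower and 5 peaked. BnaC07g20570D had 4905 FPKM and BnaA06g35190D had 3927, with 268 and 326 in the inner seed coat and at most 20 in the other 5. The copper chaperone BnaC04g25100D had 1679 FPKM against at most 61.

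Cell division genes differed between replication and mitosis, sets that were split from their list after the values were seen and leave out some copies. The whole list gave 16 higher, 33 lower and 56 neither of 105 copies, with a median of -0.72. Without the embryo proper column it gave 22 higher, 17 lower and a median of -0.40. Replication genes, the MCM helicase subunits 2 to 7 and the sliding clamp PCNA, gave 13 higher, 0 lower and 13 neither of 26, with a median of 1.11. Their sum of 639 FPKM was second to the embryo proper, with 1184, and above the outer seed coat, with 282. PCNA1 had 188 FPKM in BnaC08g45280D against 165 in the embryo proper, and the peripheral endosperm followed with 83. Genes of mitosis, namely B-type cyclins, CDKB kinases, Aurora kinases, MYB3R4 and cytokinesis factors, gave 3 higher, 21 lower and 30 neither of 54, with a median of -1.12, and without the embryo proper 5 higher and 12 lower. Of these, 32 were listed at 0, and the sum was 161 FPKM where the embryo proper had 1434 and the peripheral endosperm 607. The CDKB2;2 copies BnaC07g15060D and BnaA07g11180D, kinases of the entry into mitosis, were at 0 here and at 71 and 66 FPKM in the embryo proper. The 3 higher copies were of the B-type cyclin CYCB2;4 (BnaC02g27330D), which peaked with 37 FPKM against 18 in the chalazal endosperm, and of CYCB1;2 (BnaC01g36320D) and CDKB1;1 (BnaA04g04280D), both at 10 FPKM.

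Endocycle genes, which let cells copy DNA without dividing, gave 7 higher (22.6%), 3 lower (9.68%) and 21 neither of 31 copies. Among all genes 16.5% were higher and 11.2% lower, and the endocycle median was -0.33. The activator CCS52A1 was higher in 4 of 7 copies, up to 45 FPKM in BnaCnng71150D, and the division-linked CCS52B was lower in BnaA03g04530D, with 0 here and 81 in the embryo proper. Core histones, many of which are made while DNA is copied, gave 90 higher, 3 lower and 35 neither of 128 copies, with 20 peaking and a median of 1.78. H4 was higher in 26 of 27 copies and H3 in 23 of 31, and the H4 copy BnaA03g17280D had 3556 FPKM, followed by chalazal endosperm with 447 and micropylar endosperm with 397. H2A was higher in 28 of 48 copies and H2B in 13 of 22. Their sums of 6462 and 7777 FPKM here were below those of the embryo proper, 6945 and 8083. Higher copies numbered 103 under the common median, 86 under the common sum and 80 under quantile normalisation, and peaking ones 40, 12 and 11. Without the embryo proper column 45 peaked.

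**Figure D4:**
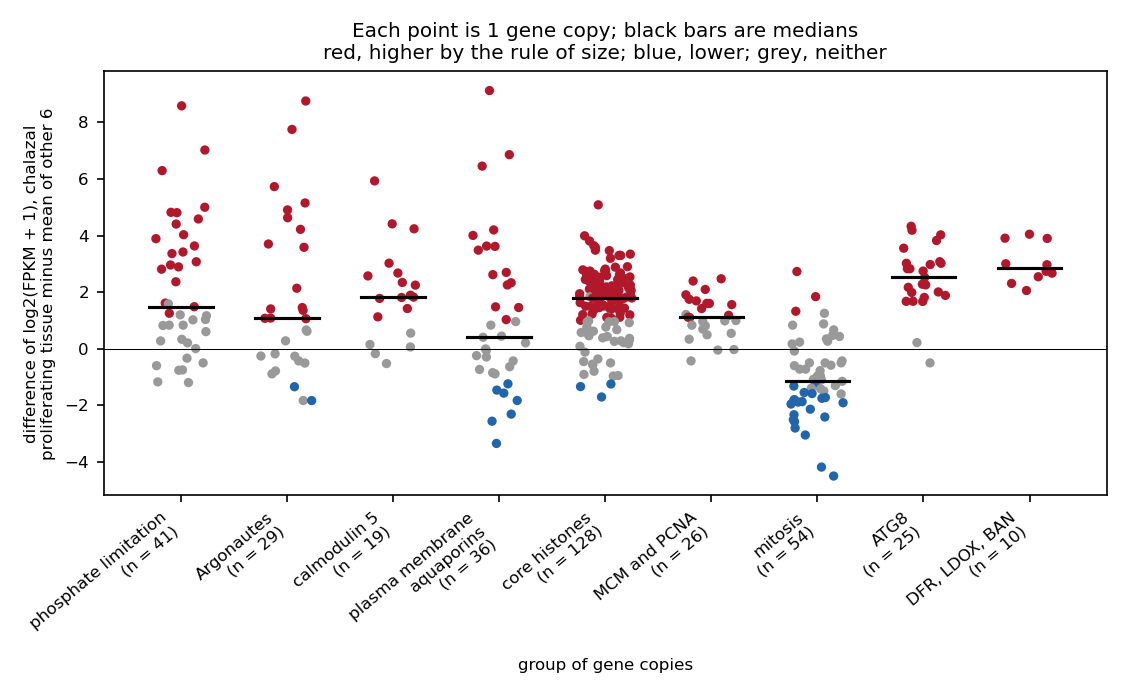
Difference of log2(FPKM + 1) between the chalazal proliferating tissue and the mean of the 6 other compartments (vertical axis) for the copies of 9 gene groups (horizontal axis); each point is 1 copy, black bars are medians, and red, blue and grey mark copies higher, lower or neither by the rule of size. Medians are above 0 in all groups but mitosis, where it is -1.12, and highest for DFR, LDOX and BAN at 2.85. All 9 groups were chosen, or split from lists, after the values were seen, so their directions are in part built in.

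Signalling and stress genes added single families. Calmodulin 5, a calcium sensor, was higher in 14 of 19 copies, with 0 lower and 8 peaking, or 4 peaking under quantile normalisation. BnaC09g36740D had 2854 FPKM against 701 in the inner seed coat and 698 in the chalazal endosperm. All 5 compared copies of the transcription factor bZIP70 peaked, from 39 to 165 FPKM, and BnaA09g05450D, at 165, was at 0 in every other compartment. SAG20, a senescence-associated gene, peaked in 5 of 6 copies, with 398 FPKM in BnaA05g27950D against 15 in the micropylar endosperm. A20/AN1 zinc finger proteins, linked to stress tolerance, peaked in 10 of 32. Heat and wound response genes as a list gave 17 higher, 6 lower and 40 neither of 63, with a median of 0.32. HSP70 was higher in 4 of 4 copies, whereas jasmonate genes were split, with JAZ10 at 141 FPKM in BnaA10g20060D, where the outer seed coat had 226, and LOX2 at 0 in BnaA07g19600D, where the inner seed coat had 46.

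Some lists had few or no higher copies, and how many of their copies were lower depended on the columns compared. No copy was higher in the gibberellin list, with 7 lower of 23 and a median of -1.21, or in the auxin list, with 11 lower of 32 and a median of -1.09. Against the median of the other 6 compartments in place of their mean, 2 and 5 copies were lower and both medians were 0. Without the embryo proper column 5 auxin copies were lower, and without the peripheral endosperm column 4 gibberellin copies. The gibberellin synthesis gene GA20OX4 (BnaA09g13940D) was at 0 here and 333 FPKM in the chalazal endosperm, and the auxin carrier PIN4 (BnaA07g30950D) at 0 here and 97 in the embryo proper. Seed reserves gave 0 higher, 30 lower and 10 neither of 40, with a median of -2.09, and 12 lower without the micropylar endosperm column. The albumin SESA1 (BnaC01g43250D) was at 0 here and at 312 FPKM in the micropylar endosperm. Endosperm regulators gave 0 higher and 33 lower of 53, with a median of -1.37, and embryo regulators 2 higher and 17 lower of 38, with a median of -1.07. Lower endosperm regulators numbered 19 without the peripheral endosperm column and 12 against the median of the others. Lower embryo regulators numbered 1 without the embryo proper column, with a median of -0.40, and 4 against the median of the others, with a median of -0.15. Both higher embryo regulators were copies of the boundary gene CUC1, BnaA03g33770D at 13 FPKM and BnaC03g38960D at 9.

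Other lists, apart from housekeeping genes, were close to the background of 16.5% higher and 11.2% lower, or were small. Abscisic acid metabolism gave 3 higher and 3 lower of 28, callose and plasmodesmata 7 and 2 of 42, ovule and integument patterning 5 and 3 of 51, phloem and xylem 1 and 3 of 27, suberin 0 and 0 of 8 and mucilage and seed coat epidermis 10 and 6 of 72. Within the last, 4 of 6 copies of MYB61, a regulator of mucilage, were higher, with a sum of 323 FPKM against 699 in the inner seed coat. Housekeeping genes were above the background on both sides, with 11 higher (21.6%) and 13 lower (25.5%) of 51, or 3 lower under the common median. Among them, the glycolysis gene GAPC1 was at 2360 FPKM in BnaA06g08510D against 694 in the chalazal endosperm. The actin ACT7 was at 21 in BnaA02g00190D against 180 in the inner seed coat. The medians of the abscisic acid, callose, mucilage and housekeeping lists changed sign with the scaling of columns.

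Photosynthesis genes as a list were not far from all genes compared, while sets within the list differed. Of 128 copies 25 were higher (19.5%) and 21 lower (16.4%), against 16.5% and 11.2% of all genes. The median of 0.07 changed sign under the common sum and quantile normalisation. Rubisco small subunit genes gave 1 higher and 9 lower of 15, with a median of -2.69, and RBCS1B (BnaA02g12840D) had 1 FPKM here and 1796 in the peripheral endosperm. Genes of the light-harvesting antenna and the photosystems gave 20 higher and 4 lower of 83, and 13 higher and 9 lower without the inner seed coat column. They sum to 6168 FPKM here, where the inner seed coat had 652, the outer one 3429 and the peripheral endosperm 15834. PSBR, a subunit of photosystem II, had 397 FPKM in BnaA07g20510D against 271 in the peripheral endosperm, while the inner seed coat had 10.

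**Figure D5:**
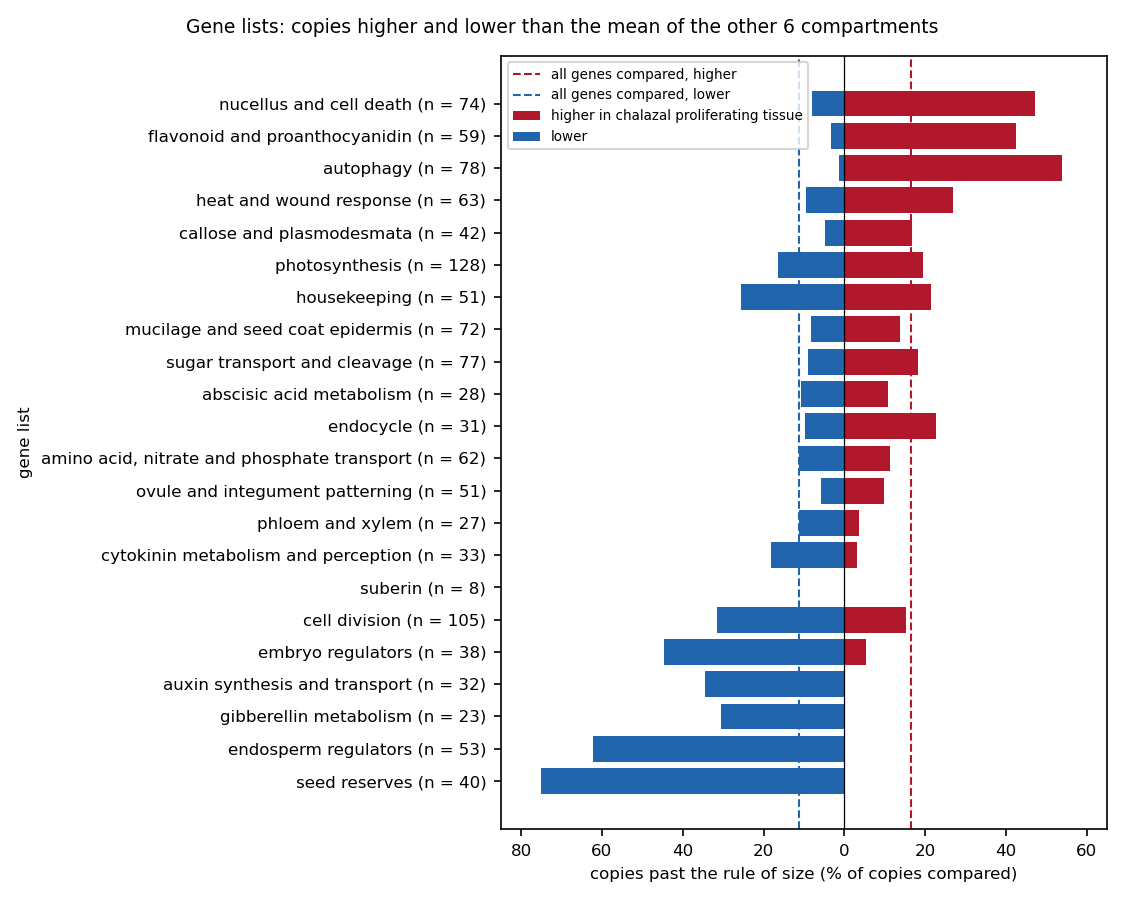
Percent of compared copies higher (red, to the right) and lower (blue, to the left) in the chalazal proliferating tissue for the 22 gene lists, ordered by median difference; dashed lines mark all genes compared, at 16.5% higher and 11.2% lower. Nucellus and cell death, flavonoid and autophagy lists stand at the top, with 47.3%, 42.4% and 53.8% higher, and seed reserves and endosperm regulators at the bottom, with 75% and 62.3% lower.

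At the low end, 577 genes (1.06%) were at least 2-fold below every other compartment, 265 when columns were scaled to a common median and 873 without the chalazal endosperm column. The lowest described gene was annotated as the chloroplast-type gene PETG (BnaA08g02060D), listed at 0 here and in the whole seed and at 28 to 9887 FPKM in the other 6. Its class, rRNA and organelle genes, took only 0.00762% of the whole seed column, so the 0 there says little about PETG. MLP423 (BnaAnng33440D), a protein of the major latex family, was at 0, where the outer seed coat had 5294 FPKM and the micropylar endosperm 1339, but at 1 and 3 in the chalazal and peripheral endosperm. Further copies matched to chloroplast genes lay at the low end, such as BnaC07g05360D (ATCG00720, petB) with 24 FPKM against 7013 in the micropylar endosperm. Genes of rRNA and the organelles took 36.9% of the micropylar endosperm column and 4.86% of this one, and the part of that share in these differences was not tested. Several of the remaining lowest genes were abundant in endosperm. The cysteine-rich protein gene BnaA02g22850D had 7 FPKM here and 6816, 4369 and 2955 in the chalazal, peripheral and micropylar endosperm. A gene of the invertase and pectin methylesterase inhibitor family, BnaC02g19120D, had 5 FPKM against 6414 in the chalazal endosperm. Both were at 106 FPKM or less in the embryo proper and seed coats.

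At the other extreme, 118 compared genes (0.217%) had at least 5 FPKM here and 0 in all 6 other compartments, 16 of them at 50 FPKM or more. Among the described ones were a lectin gene, BnaA01g12410D, at 251 FPKM, a peroxidase gene, BnaA07g33290D, at 246, the LOB-domain factor LBD42 (BnaC06g30110D) at 237 and BnaC06g17590D, an auxin-regulated gene of organ size (ARGOS in Arabidopsis), at 209. The whole seed listed them at 2 to 19 FPKM. Some others of the 118 were higher in the whole seed than here, such as the metallothionein 2B gene BnaC03g00710D, with 122 FPKM there and 26 here. A further 202 genes with this pattern were at 0 in the whole seed too and were therefore not among the compared genes. For peaking genes in general the whole seed had a median of 17.8% of the level in the chalazal proliferating tissue, against 60% for all compared genes at 5 FPKM or more, and 1.1% for the 45 genes at 100-fold or above. Since peaking genes were picked by a high level here, a lower ratio is in part built in.

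Peaking genes were short, with a median length of 921.5 bases against 1253 for all compared genes and 1173 for those at 5 FPKM or more here. Of genes under 500 bases 7.93% peaked, and of those of 2000 bases or more 1.62%. The peripheral endosperm had the same trend, from 8.70% to 0.833%, and the embryo proper the opposite one, from 4.84% to 9.87%. Core histone copies have a median length of 635 bases and Argonaute copies of 3108. The part of gene length in these results was not tested.

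The A and C subgenomes contributed about equally, with 46.7% of peaking genes and 47.3% of all compared genes on A chromosomes. Among 6371 homeolog pairs, that is loci with a single compared copy on each subgenome, both copies peaked in 102, the A copy alone in 111 and the C copy alone in 138. Of all copies in these pairs 3.56% peaked. In the 249 pairs with a single peaking copy, the partner had 5 FPKM or more here in 171, and was highest here as well in 104. The partner was listed at 0 in 14. With a chromosome position there were 1869 peaking genes among 80453 genes. Of these 1869, 11.6% lay next to another, in 91 pairs and 11 longer runs. Whether this exceeds what the share of peaking genes alone would give was not tested. One run of 4 on A03 (9872763 to 9881355) holds a DUF581 gene at 356 FPKM, casein kinase 2 beta subunit 4, a Myb/SANT-like factor and cyclin P4;1. The first 3 of these recur side by side on C03 (13982858 to 13987487). A run of 3 on C05 (42081909 to 42088423) holds kelch-repeat copies of AT4G38940 at 910, 7841 and 2880 FPKM.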

How the data were processed

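Whole seeds and 7 dissected compartments of Brassica napus were profiled by RNA-seq in 22 libraries, prepared with a NuGen Ultralow kit per the labels' protocols. The submitters' processing notes name Trimmomatic 0.36, HISAT2 and Cufflinks, without roles, and no genome build. The authors deposited 1 value per group, a score: FPKM rounded to whole numbers (100% of values were whole), with no statement of how libraries were combined. The whole seed column has no unit per the file headers and was taken as FPKM. The authors also deposited the gene length in bases, the other unit used. Low values are coarse, depth is unknown, and 1 column of values was not used, since it matches no sample label.

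Compared genes reached 1 FPKM or more in 2 or more of the 8 columns. The difference is the log2(FPKM + 1) of the chalazal proliferating tissue minus the mean of the 6 others, so it understates changes of low genes. With 1 value per group no test could be run, and a rule of size (2-fold, 5 FPKM) took its place. The code was tested on simulated data. The 22 gene lists cover 449 Arabidopsis loci. Members and lists were chosen with earlier results of these data known. Named genes are the 15 highest and 10 lowest described genes beyond 2-fold of every other compartment, up to 4 copies per list and direction, the 5 most abundant, and the top 3 of each description with 5 or more peaking genes. Genes and groups outside this rule were chosen after their values were seen. Alternatives were another pseudocount, filters, scalings, threshold, floor, centre and the omission of columns. Values were computed in Python 3.11.15 with pandas 2.3.3 and numpy 2.4.6, and drawn with matplotlib 3.10.9.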

Additional observations from a re-analysis of the deposited data

How the results depend on the processing

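No paired analysis was possible because each group has 1 combined column, and for the same reason no library could be left out in turn. Over all settings run, counts of higher genes ranged from 3898 to 12679, of lower genes from 1980 to 9039 and of peaking genes from 786 to 3086. A threshold of 4-fold gave 3898 higher, 1980 lower and 786 peaking genes, fewer by construction. For these 3 counts the other settings stayed within 1.5 times of the reported ones, whereas the 577 genes lowest here ranged from 80 to 873, and counts of single lists moved further, as given in the report. Scaling to a common median gave 12679 higher and 4636 lower, a common sum, leaving out rRNA and organelle genes, 7578 and 7314, and quantile normalisation 8525 and 6340. A pseudocount of 0.1 moved the median of all genes by 0.31, and a filter of 5 FPKM in 2 columns by 0.14. Peaking genes numbered 1509 under the common sum, 1417 of them shared with the 2238 reported, and 3086 without the inner seed coat column. Homeolog pairs with both copies passing numbered 102 for peaking and 610 by the rule of size against the mean. Omission of the chalazal endosperm, embryo proper, peripheral endosperm or outer seed coat column was chosen after seeing the data and left 8694 to 9288 genes higher. Genes at 0 in all other compartments had settings chosen after seeing the data too: 118 became 320 without a filter and 39 with the filter of 5 FPKM. Of the 339 named genes, 332 kept their call under the common median, 337 under the common sum and 335 under quantile normalisation. None of the 339 turned its direction in these 3 scalings, where list medians beyond 1 on either side also kept their sign. Groups chosen by description were run under all settings after seeing the data. Whole-number values limit what can be said below about 5 FPKM.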

Other observations

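Groups of genes for general cell functions, chosen after their values were seen, differed among themselves. Small nuclear proteins of the spliceosome, which removes introns, gave 53 higher, 3 lower and 14 peaking of 135 copies, with a median difference of 0.62. Genes described as subunits of the respiratory chain or of an ATP synthase gave 90 higher, 24 lower and 29 peaking of 307, with a median of 0.35. Grouped by description, they include copies matched to chloroplast genes, such as the lower BnaA01g34170D (ATCG00120) and BnaC09g26860D (ATCG01010). Ribosomal proteins gave 131 higher and 199 lower of 1261, with a median of -0.24 that became 0.18 when columns were scaled to a common median, where 231 copies were higher and 96 lower. All genes compared gave 16.5% higher, 11.2% lower and 4.12% peaking. Peaking spliceosome copies numbered 22 under the common median and 9 under the common sum.

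Among loci with several copies, RCC1-family locus AT3G26100 peaked in 6 of 10, and glutamate decarboxylase AT5G17330, which makes the amino acid GABA, in 4 of 6, up to 1787 FPKM. In large description classes, beside 4.12% peaking of all genes, the number that peaked was 36 of 540 for RING/U-box proteins, 12 of 75 for SAUR-like auxin-responsive proteins, 7 of 30 for Dof-type zinc finger factors and 10 of 664 for protein kinases. Lipid transfer and 2S albumin proteins had 7 peaking of 106, and 42 lower.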
